A study of Mus musculus with 24 samples.

Results

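The 30 genes described here are genes of myelin and of the oligodendrocyte lineage, whose transcripts were sequenced from mouse prefrontal cortex. They were chosen by symbol, from a list of myelin proteins, myelin lipid enzymes, lineage transcription factors and stage markers, and all 30 were found among the 45777 genes of the deposited table. All 30 passed the filter on low counts, which 18380 genes of the table passed. The 24 libraries came from wild type adult male mice and form 4 groups of 6. MS_EC12 mice had maternal separation (pups were taken from the dam in early life) and the EC-12 supplement of heat-killed Enterococcus faecalis, a gut bacterium, for 5 weeks. Control_EC12 mice had the supplement without separation, MS mice had separation without the supplement, and Control mice had neither. Whether every library is a different mouse is not stated, and the p-values therefore rest on spread among libraries that could in part be technical. The tissue is bulk cortex, in which fewer oligodendrocytes and less RNA per oligodendrocyte cannot be told apart.

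Oligodendrocytes wrap axons of the central nervous system in myelin, a multilayered membrane rich in galactolipids and in a small set of abundant proteins. They arise from precursors that carry the growth factor receptor Pdgfra and the surface proteoglycan Cspg4, pass through a short premyelinating stage marked by Bcas1, Enpp6 and Gpr17, and then switch on the myelin genes. The transcription factors Olig1, Olig2 and Sox10 act through most of this sequence. By known stage the list holds 21 genes of mature oligodendrocytes, 3 of newly formed cells, 3 of precursors and 3 lineage factors.

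The promoters of 4 genes whose levels differed between MS_EC12 and Control are shown, since the results turn on these genes. Promoter sequences of 300 bases came from a reference promoter set on build GRCm38.p6, which held 24 promoters of 20 of the 30 genes. They were searched on both strands for ACAAAG and ACAATG (SOX factors), CTGGCAC and CTGGTAC (MYRF), and CAGCTG and CAGATG (E-boxes that OLIG2 binds). None of these letter strings can hold another of them. Matches are printed in capitals, on the strand of the gene and 5′ to 3′. Olig2 lies on the plus strand and its window is chr16:91225300-91225599, Ermn on the minus strand at chr2:58052815-58053114, Enpp6 on the plus strand at chr8:46986637-46986936 and Ugt8a on the minus strand at chr3:125938603-125938902. The start site in the Enpp6 window is that of the GENCODE vM21 gene. It lies 47690 bases inside the RefSeq gene, whose annotated span begins further upstream.
Olig2: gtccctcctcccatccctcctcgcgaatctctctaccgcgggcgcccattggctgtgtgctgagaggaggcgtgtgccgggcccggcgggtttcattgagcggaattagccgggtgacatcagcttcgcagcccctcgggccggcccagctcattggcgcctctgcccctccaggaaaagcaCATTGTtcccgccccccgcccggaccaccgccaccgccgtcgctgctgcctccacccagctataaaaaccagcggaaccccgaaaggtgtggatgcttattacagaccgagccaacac
Ermn: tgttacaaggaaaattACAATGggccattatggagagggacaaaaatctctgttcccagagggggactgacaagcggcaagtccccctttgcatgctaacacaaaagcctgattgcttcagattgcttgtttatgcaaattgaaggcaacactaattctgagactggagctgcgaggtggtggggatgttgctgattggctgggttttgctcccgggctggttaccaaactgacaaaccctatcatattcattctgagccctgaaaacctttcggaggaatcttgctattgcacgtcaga
Enpp6: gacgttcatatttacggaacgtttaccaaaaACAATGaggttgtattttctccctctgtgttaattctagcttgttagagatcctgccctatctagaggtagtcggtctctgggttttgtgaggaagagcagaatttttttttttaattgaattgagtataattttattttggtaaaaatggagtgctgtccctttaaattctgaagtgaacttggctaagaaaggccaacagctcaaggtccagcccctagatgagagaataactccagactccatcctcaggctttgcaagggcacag
Ugt8a: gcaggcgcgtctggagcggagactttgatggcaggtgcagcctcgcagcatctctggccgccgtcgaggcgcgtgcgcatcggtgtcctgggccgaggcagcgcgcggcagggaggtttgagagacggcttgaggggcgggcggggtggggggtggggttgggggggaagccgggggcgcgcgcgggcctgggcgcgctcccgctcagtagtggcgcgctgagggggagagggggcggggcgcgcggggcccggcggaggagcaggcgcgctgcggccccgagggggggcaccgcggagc
The windows of Olig2, Ermn and Enpp6 each held 1 SOX string and no MYRF or OLIG2 string, and that of Ugt8a held none of the 6 strings searched. A SOX string stood in 41.7% of the 24 member promoters and in 28.6% of all 32851 promoters of this length. A MYRF string stood in 20.8% and 7.1%, and an OLIG2 string in 33.3% and 30.6%. Some of the 24 windows belong to the same gene and can share bases. The GC content of these windows was 65% for Olig2, 47% for Ermn, 40.3% for Enpp6 and 78.3% for Ugt8a.

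The 24 libraries held 26250197 to 39252382 counts. They differed in how strongly their values depended on GC content, and this moved with the groups. For each library, log2 CPM (counts scaled to library size, with TMM factors) was regressed on the GC content of each gene's longest transcript, after subtracting the gene's mean over libraries. The slope, per 10 percentage points of GC, is called the GC slope. It was above 0 in 7 libraries and below 0 in 17. The 7 were MS_EC12 replicates 3, 4, 5 and 6, Control_EC12 replicates 3 and 4, and MS replicate 3, with no Control library among them. The median slope was 0.279 in MS_EC12, −0.117 in Control_EC12, −0.168 in MS and −0.12 in Control, and the highest was 0.613 in MS_EC12 replicate 6. That replicate also had a sum of 755 CPM over 15 genes of ependyma and choroid plexus, against at most 93.1 CPM in any MS library, 43.8 CPM in any Control_EC12 library and 33.7 CPM in any Control library.

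Levels per length, as TPM, differed widely among the 30 genes. Mbp, the basic protein that compacts the cytoplasmic faces of myelin, had the highest median over the 24 libraries, at 2304 TPM. Mobp, another basic protein of compact myelin, followed at 631 TPM. Plekhb1, a pleckstrin homology domain protein, had 320 TPM, and Cnp, a cyclic nucleotide phosphodiesterase of non-compact myelin, had 292 TPM. At the other end, Nkx6-2, a homeobox factor of maturing oligodendrocytes, had 11.6 TPM, Enpp6, a choline-specific phosphodiesterase, had 4.37 TPM, and Cspg4 had 4.35 TPM. The TPM ranges over libraries of Mbp (1785 to 3966) and Mobp (425 to 883) did not meet, while those of Enpp6 (2.32 to 5.76) and Cspg4 (2.48 to 5.87) covered nearly the same values. The lowest count of any of the 30 in a library was 142, for Nkx6-2. Precursor markers stood at 25.9 TPM for Lhfpl3, a tetraspan membrane protein, and 17.5 TPM for Pdgfra. Lineage factors stood at 97 TPM for Olig1, 29.1 TPM for Sox10 and 25.4 TPM for Olig2.

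Of the 30 genes, 6 passed between MS_EC12 and Control, and they split evenly by direction. Olig2, Olig1 and Bcas1 were higher in MS_EC12, while Ugt8a, Ermn and Enpp6 were lower. Over all 18380 genes tested, 7.31% were called higher and 6.8% lower in this comparison, and 3 of 30 genes in each direction is close to both shares. Calls are at an adjusted p under 0.05 from edgeR's quasi-likelihood F test over all genes, and fold changes are log2 with the SE.

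Olig2, the helix-loop-helix factor needed for the oligodendrocyte lineage, lies at chr16:91225550-91228677. It ran from 26.3 to 40.8 CPM in MS_EC12 libraries (median 32.5), and from 18.3 to 26 CPM in Control libraries (median 22.6). Every MS_EC12 library was above every Control library, though the nearest 2 stood at 26.3 and 26 CPM. The log2 fold change between the groups was 0.58 ± 0.119 (adjusted p = 0.0181, edgeR). In Control_EC12 the level ran from 19.9 to 30.3 CPM (median 24), and in MS from 22.6 to 32.2 CPM (median 26.9). Olig1, the related factor of the neighbouring locus at chr16:91269769-91271939, had 82.6 to 145 CPM in MS_EC12 (median 109) and 76.6 to 86.5 CPM in Control (median 84.6). The groups overlapped only through MS_EC12 replicate 1, and the difference was 0.42 ± 0.107 (adjusted p = 0.0306, edgeR). The third lineage factor, Sox10, which binds the enhancers of many myelin genes, did not pass. It had 23.6 to 48.4 CPM in MS_EC12 (median 39) and 30.8 to 36.6 CPM in Control (median 35.2), so that MS_EC12 held both the lowest and the highest library.

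Bcas1, a protein of cells that are starting to myelinate (chr2:170343973-170427911), had 157 to 287 CPM in MS_EC12 (median 172) and 128 to 180 CPM in Control (median 155). The difference of 0.37 ± 0.121 (adjusted p = 0.045, edgeR) came with an uneven spread: MS_EC12 replicates 2 and 6 had 243 and 287 CPM, and the other 4 MS_EC12 libraries had 157 to 174 CPM, all within the Control range. Enpp6 (chr8:46939197-47096762), of the same stage, went the other way. It had 4.45 to 9.09 CPM in MS_EC12 (median 6.34) and 9.33 to 10.6 CPM in Control (median 9.86), without overlap, a log2 fold change of −0.59 ± 0.155 (adjusted p = 0.0309, edgeR). Gpr17, a receptor of committed precursors, had medians of 61.6 CPM in MS_EC12 and 60.6 CPM in Control and did not pass (−0.02 ± 0.0881). The 3 markers of newly formed cells therefore gave 1 call in each direction and 1 without a call.

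Among the 21 genes of mature cells, the 2 that passed were both lower. Ugt8a encodes the galactosyltransferase that makes galactosylceramide, a galactolipid of myelin, and lies at chr3:125865272-125938682. It had 21.6 to 39.8 CPM in MS_EC12 (median 32.7) and 41.4 to 57.4 CPM in Control (median 53.4). The groups did not overlap, and the log2 fold change was −0.74 ± 0.159 (adjusted p = 0.0197, edgeR). Ermn encodes ermin, a cytoskeletal protein of the outer myelin tongue, at chr2:58045115-58052864. Its range was 17.7 to 47.9 CPM in MS_EC12 (median 25.1) and 42.8 to 52.7 CPM in Control (median 51.5), overlapping through MS_EC12 replicate 2 alone. The log2 fold change was −0.77 ± 0.221 (adjusted p = 0.0354, edgeR).

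**Figure D1:**
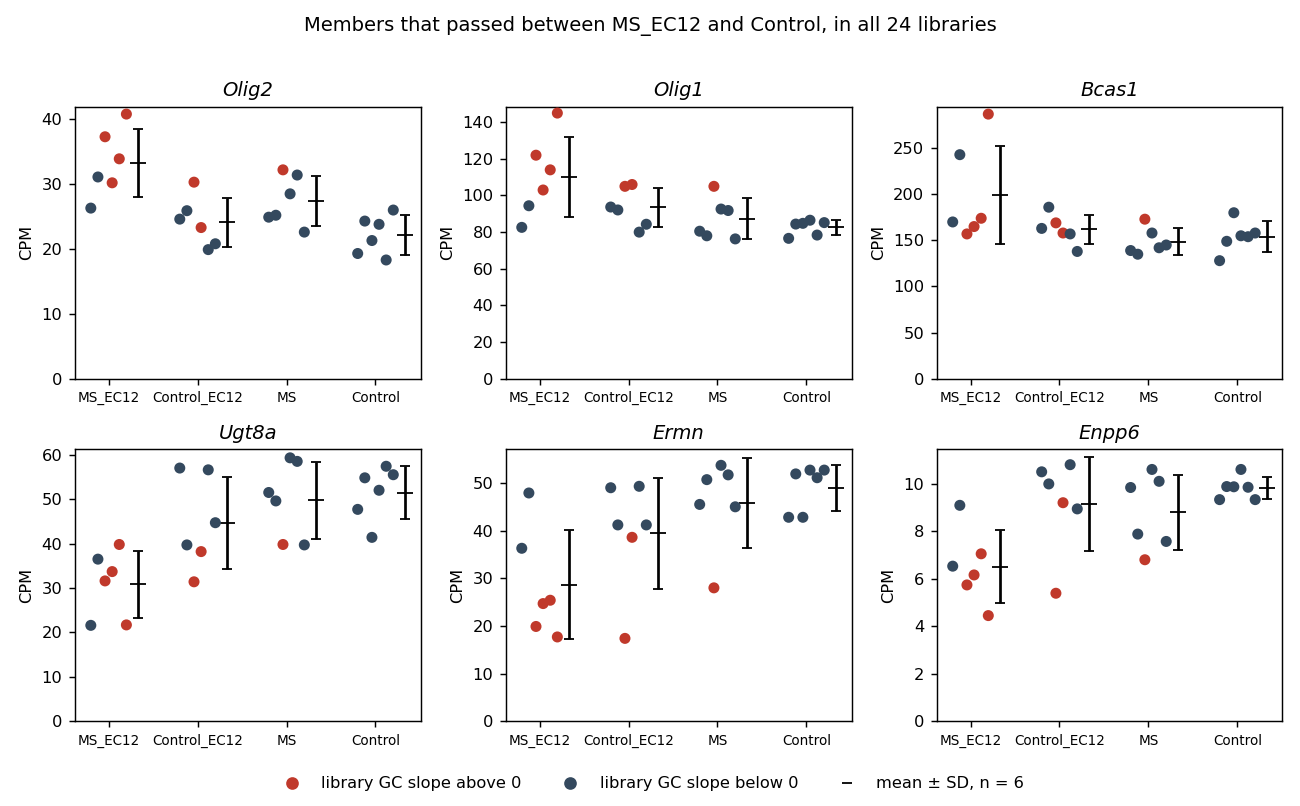
CPM of the 6 genes that passed between MS_EC12 and Control, with 1 point per library in MS_EC12, Control_EC12, MS and Control, and the mean ± SD (n = 6) beside each group. Red points are the 7 libraries of GC slope above 0. For Enpp6 and Ugt8a every MS_EC12 library lies below every Control library, and for Olig2 every one lies above.

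The abundant structural myelin genes did not pass, although most had higher medians in MS_EC12. Mbp had 1883 to 4008 CPM in MS_EC12 (median 2985) and 2051 to 2505 CPM in Control (median 2315), a log2 fold change of 0.34 ± 0.132 (adjusted p = 0.0668, edgeR). Cnp had 207 to 563 CPM in MS_EC12 (median 409) and 277 to 302 CPM in Control (median 293), with 0.44 ± 0.166 (adjusted p = 0.0645, edgeR). For both genes MS_EC12 held the lowest library and the highest library of the 2 groups. Mog, a glycoprotein of the outermost myelin surface, had 37.9 to 67.7 CPM in MS_EC12 (median 59.5) and 49.7 to 55.6 CPM in Control (median 52), with 0.14 ± 0.114 (adjusted p = 0.374, edgeR). Mag, an adhesion protein facing the axon, had medians of 197 CPM in MS_EC12 and 150 CPM in Control. Cldn11, the tight junction protein of myelin, had medians of 166 CPM in MS_EC12 and 132 CPM in Control. Mobp and the lipid raft protein Mal ran the other way in their medians, with 675 CPM in MS_EC12 and 752 CPM in Control for Mobp, and 217 CPM in MS_EC12 and 234 CPM in Control for Mal. Neither of these passed.

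The remaining mature genes had medians in MS_EC12 above Control for some and below it for others. Opalin, a membrane protein of the inner loop, had medians of 25.1 CPM in MS_EC12 and 21.2 CPM in Control. Plekhb1 had 288 CPM in MS_EC12 and 234 CPM in Control, and the tetraspanin Tspan2 had 89.6 CPM in MS_EC12 and 110 CPM in Control. Among the enzymes, Fa2h, which hydroxylates the fatty acids of myelin lipids, had medians of 32.4 CPM in MS_EC12 and 28.4 CPM in Control. Aspa, which frees acetate from N-acetylaspartate, had 13.9 CPM in MS_EC12 and 16.5 CPM in Control. Car2, a carbonic anhydrase, had 143 CPM in MS_EC12 and 159 CPM in Control, and Qdpr, a pteridine reductase, had 178 CPM in MS_EC12 and 156 CPM in Control. The transcription factors Myrf, which switches on myelin genes, and Nkx6-2 had medians of 55.9 and 10.4 CPM in MS_EC12, and 44.2 and 8.18 CPM in Control. The orphan receptor Gpr37 had 55.7 CPM in MS_EC12 and 51.6 CPM in Control, transferrin (Trf) had 225 CPM in MS_EC12 and 186 CPM in Control, and the small heat shock protein Cryab had 89.9 CPM in MS_EC12 and 70 CPM in Control. None of these 12 genes passed. The precursor genes did not pass either. Pdgfra had 35.8 to 50.2 CPM in MS_EC12 and 43.5 to 52.7 CPM in Control (−0.25 ± 0.116, adjusted p = 0.122, edgeR). Cspg4 had 12.1 to 22.6 CPM in MS_EC12 and 12.7 to 16 CPM in Control (0.24 ± 0.118, adjusted p = 0.14, edgeR), and Lhfpl3 had medians of 29.5 CPM in MS_EC12 and 34.4 CPM in Control.

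By stage, the median log2 fold change of MS_EC12 over Control was 0.139 for the mature genes (14 of 21 above 0), −0.0242 for newly formed cells, −0.246 for precursors and 0.417 for lineage factors. Over all genes tested it was 0.00745, with 50.8% above 0. The mature median turned to −0.0893 (4 of 21 above 0) with the GC slope as a covariate in the fit, and to −0.199 (2 of 21) in the 17 libraries of slope below 0. Without adjustment (p under 0.05), 8 of the 30 were higher and 4 lower, against 18.1% of all genes higher and 20.2% lower. DESeq2 called 9 of the 30 (Mbp, Cnp, Ermn, Ugt8a, Olig1, Olig2, Plekhb1, Bcas1 and Enpp6), against 29.3% of all genes to which it gave an adjusted p. Limma on log2(TPM + 1) called 7 (Ermn, Ugt8a, Olig1, Olig2, Tspan2, Car2 and Enpp6, without Bcas1), against 21.6% of all genes.

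**Figure D2:**
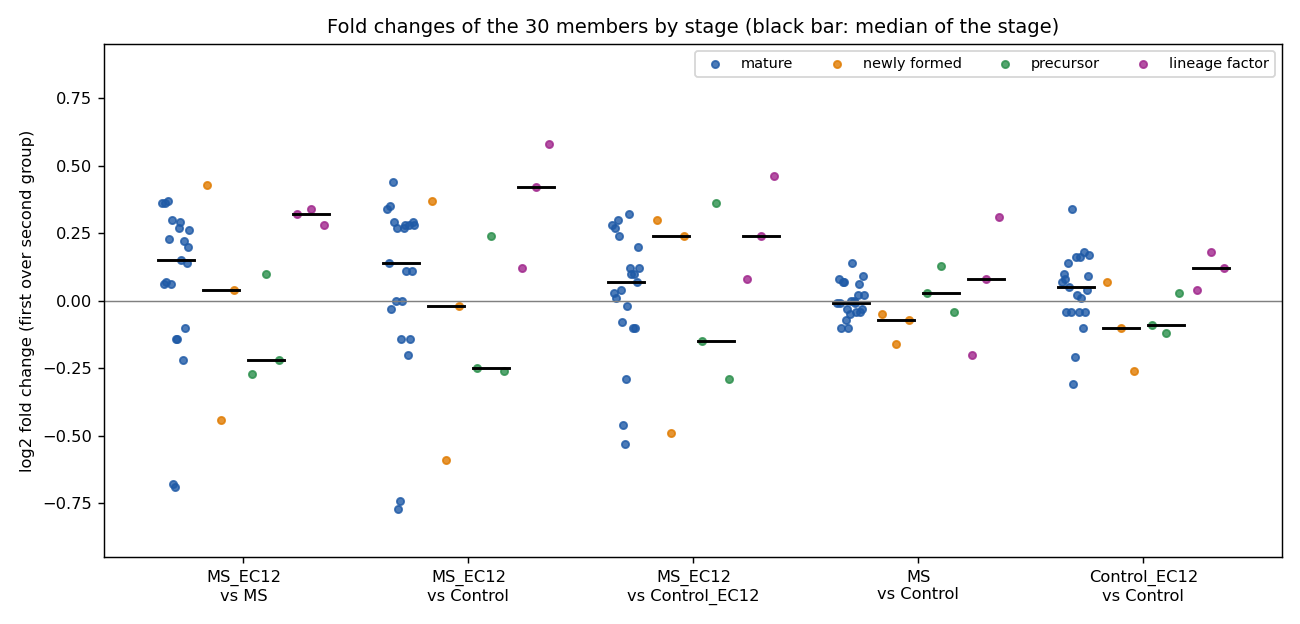
Log2 fold changes of the 30 genes by comparison (x axis) and stage (colour), 1 point per gene, first group over second, with a black bar at each stage's median. In MS_EC12 against Control the mature genes spread from −0.77 (Ermn) to 0.44 (Cnp), and in MS against Control they stayed between −0.0994 and 0.141.

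By the SD of CPM, the libraries differed more within MS_EC12 than within any other group for most of the 30 genes. The exceptions were Ugt8a, Ermn, Aspa, Enpp6, Pdgfra and Gpr17. MS_EC12 replicate 1 was the lowest of all 24 libraries for 18 of the 30 genes, and MS_EC12 replicate 6 was the highest for 15. Mag had 90.8 CPM in MS_EC12 replicate 1, 145 CPM in replicate 2, 228, 192 and 203 CPM in replicates 3 to 5 and 269 CPM in replicate 6, against 136 to 154 CPM in Control. Fa2h had 13.8 CPM in MS_EC12 replicate 1 and 24.1 to 42 CPM in the other MS_EC12 libraries, against 27.5 to 35.5 CPM in Control. The median deviation of the 21 mature genes from their means over libraries was −0.538 on the log2 scale in MS_EC12 replicate 1 and 0.524 in replicate 6. In the other 22 libraries it lay between −0.249 and 0.254. Replicate 1 stood apart in mature genes and less so in others: its median deviation was −0.00333 for newly formed cells, −0.0601 for precursors and −0.159 for lineage factors.

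**Figure D3:**
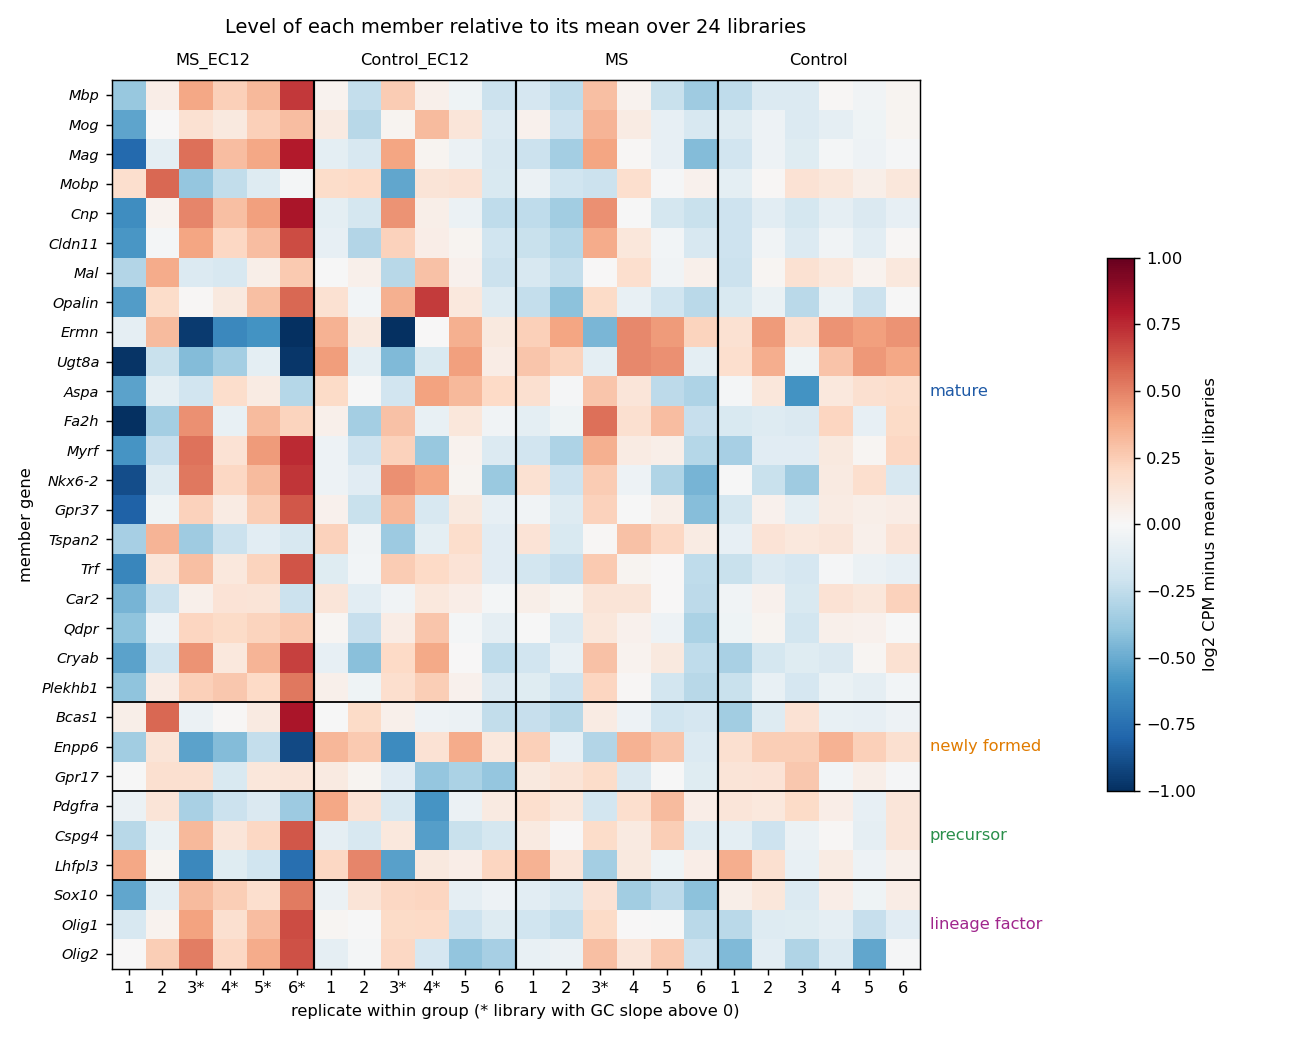
Log2 CPM of each gene minus its mean over 24 libraries (colour, clipped at −1 and 1), with genes in rows by stage and libraries in columns by group. A star marks a library of GC slope above 0. MS_EC12 replicate 1 is blue and replicate 6 is red for most mature genes, while Ermn, Ugt8a, Enpp6 and Lhfpl3 run the other way in replicate 6.

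The counts of calls turned on single libraries, in MS_EC12 and also in Control. Without MS_EC12 replicate 1, 18 of the 30 genes passed between MS_EC12 and Control, 14 higher and 4 lower, and 35.4% of all genes passed. Mbp was then 0.45 higher (adjusted p = 0.0115, edgeR) and Cnp 0.57 higher (adjusted p = 0.0103, edgeR). Without MS_EC12 replicate 6 none of the 30 passed (smallest adjusted p = 0.0657, edgeR), and 0.0541% of all genes did. Without Control replicate 5 none of the 30 passed either, and only 9 of all genes tested did. Ugt8a and Olig2 each passed in 22 of the 24 fits that left out 1 library, Enpp6 in 15, Ermn and Olig1 in 14 each, and Bcas1 in 6. Those 24 include fits without an MS or Control_EC12 library, which kept every library of the 2 groups compared. Enpp6, Ermn, Olig1 and Bcas1 did not pass in any fit that left out a Control library. Among fits without an MS_EC12 library, Ermn and Olig1 passed only without replicate 1 or 2. Enpp6 passed there only without replicate 1, 2 or 5, and Bcas1 only without replicate 1. Across the 24 fits the log2 fold change ran from −0.83 to −0.65 for Ugt8a, from 0.52 to 0.64 for Olig2 and from 0.25 to 0.43 for Bcas1.

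The direction of the fold changes ran with GC content. The longest transcripts of the 3 genes that were lower hold 38% GC (Ermn), 38% (Ugt8a) and 42.3% (Enpp6), and those of the 3 that were higher hold 50.9% (Bcas1), 58.5% (Olig2) and 61.1% (Olig1). Over the 30 genes the fold change of MS_EC12 over Control and GC content had a Pearson r of 0.75 and a Spearman rho of 0.673. Over the 17136 genes with a GC value r was 0.547 and rho 0.61. These correlations are across genes, which share the same 12 libraries and are not independent. In single libraries, Olig1 had 103 to 145 CPM in the 7 libraries of GC slope above 0 and 76.3 to 94.4 CPM in the 17 below. Likewise, Cnp had 332 to 563 CPM in the 7 and 207 to 327 CPM in the 17, and Mag, Sox10, Nkx6-2, Qdpr and Plekhb1 were also without overlap and higher in the 7. Some gaps were narrow. For Mag the lowest of the 7 stood at 158 CPM and the highest of the 17 at 157 CPM, and for Sox10 at 37.4 and 37 CPM. Pdgfra was the 1 gene lower without overlap, with 30.6 to 41.7 CPM in the 7 libraries and 43.5 to 60.3 CPM in the 17. The share of all genes that separate in this way is not given here. The slope that splits the libraries was fitted to the same log2 CPM values, so the split is not independent of them.

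**Figure D4:**
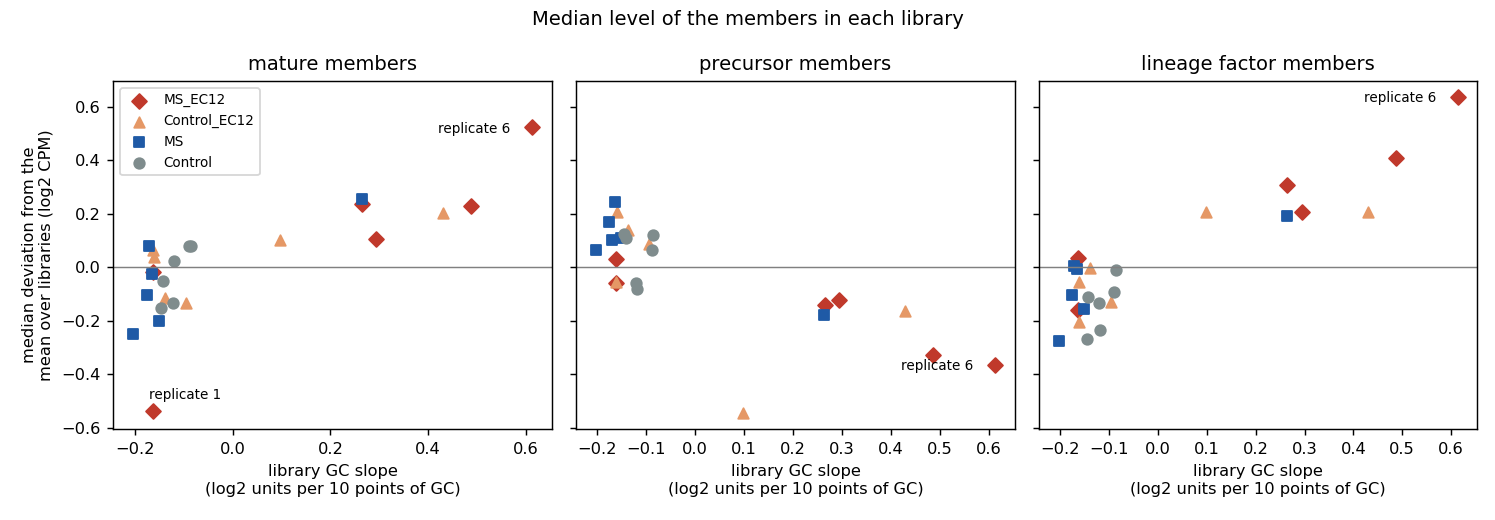
Median deviation of the mature, precursor and lineage factor genes from their means over libraries (y axis, log2 CPM) against the GC slope of each library (x axis), 1 point per library, marked by group. MS_EC12 replicate 6 has the highest slope (0.613) and the highest medians for mature genes (0.524) and lineage factors (0.637), and MS_EC12 replicate 1 has the lowest for mature genes at a slope of −0.163.

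With the GC slope as a covariate in the same fit, none of the 30 passed between MS_EC12 and Control, and 0.218% of all genes did. Olig2 was then at 0.36 ± 0.1 (adjusted p = 0.143, edgeR), Ugt8a at −0.54 ± 0.171 (adjusted p = 0.208, edgeR), Ermn at −0.24 ± 0.104, Enpp6 at −0.26 ± 0.116, Olig1 at 0.15 ± 0.0702 and Bcas1 at 0.3 ± 0.131. Mbp was at 0.01 ± 0.0869 and Cnp at −0.03 ± 0.0901. At an unadjusted p under 0.05, 4 of the 30 were higher and 6 lower in that fit, against 5.69% and 5.82% of all genes. The mature genes had a median of −0.0893 there, with 4 of 21 above 0, on the other side of 0 from the median without the covariate. All 6 genes that had passed kept their sign.

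Among the 17 libraries of GC slope below 0, MS_EC12 is represented by replicates 1 and 2 and Control by all 6 libraries. There 1 of the 30 passed, with 1.01% of all genes. That gene was Ugt8a, at 21.6 and 36.5 CPM in the MS_EC12 libraries and 41.4 to 57.4 CPM in Control (−0.82 ± 0.185, adjusted p = 0.0377, edgeR). Olig2 had 26.3 and 31.1 CPM in MS_EC12, both above the Control maximum of 26 CPM (0.37 ± 0.132, adjusted p = 0.2, edgeR). Bcas1 was at 0.42 ± 0.116 (adjusted p = 0.0895, edgeR). The median of the mature genes was −0.199 there, with 2 of 21 above 0, and 1 of the MS_EC12 pair is the replicate lowest for most of them. How far the GC slope sets the group differences was not tested.

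**Figure D5:**
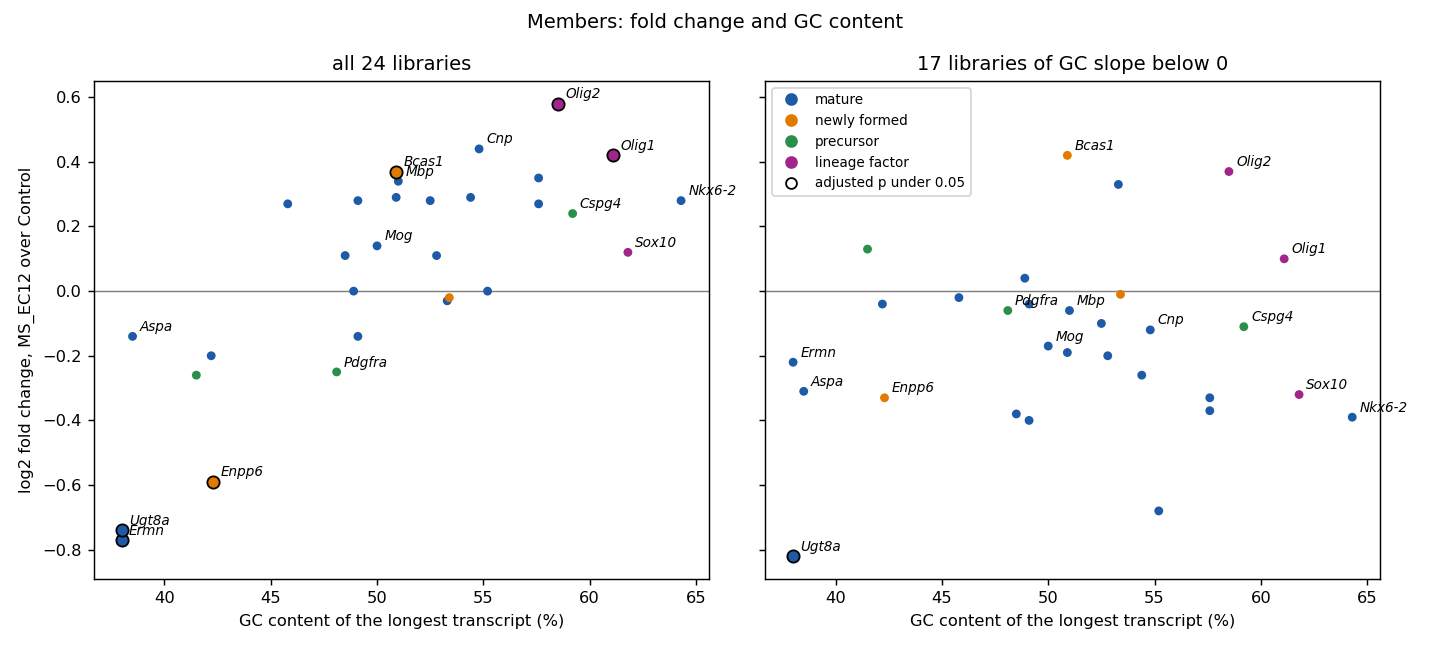
Log2 fold change of MS_EC12 over Control (y axis) against the GC content of the longest transcript (x axis) for the 30 genes, in all 24 libraries (left) and in the 17 libraries of GC slope below 0 (right). Ringed points passed at an adjusted p under 0.05. With all libraries the 3 ringed genes below 0 hold 38% to 42.3% GC and the 3 above 0 hold 50.9% to 61.1%, and in the 17 libraries Ugt8a alone is ringed.

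MS_EC12 was next set against MS, which asks what the supplement did in separated mice. None of the 30 passed by edgeR, with 0.163% of all genes passing. At an unadjusted p under 0.05, 7 were higher and 4 lower, against 15.5% and 16.3% of all genes. DESeq2 called 5 of the 30 (Ermn, Ugt8a, Olig1, Bcas1 and Enpp6), against 13.8% of all genes to which it gave an adjusted p, and limma on log2(TPM + 1) called none. The smallest p was that of Ugt8a, with 21.6 to 39.8 CPM in MS_EC12 and 39.7 to 59.3 CPM in MS (−0.69 ± 0.159, adjusted p = 0.0664, edgeR). Bcas1 was at 0.43 ± 0.122 (adjusted p = 0.0789), Olig1 at 0.34 ± 0.107 (0.0839), Ermn at −0.68 ± 0.221 (0.0843) and Enpp6 at −0.44 ± 0.155 (0.0908), all adjusted p from edgeR. Mbp was at 0.36 ± 0.132, Cnp at 0.37 ± 0.166, Mog at 0.06 ± 0.114, Pdgfra at −0.27 ± 0.116, Cspg4 at 0.1 ± 0.117 and Olig2 at 0.28 ± 0.118. The stage medians were 0.153 for mature genes, 0.0424 for newly formed cells, −0.219 for precursors and 0.319 for lineage factors, against 0.0153 for all genes. Without MS_EC12 replicate 1, 16 of the 30 passed (14 higher, 2 lower), with 27.2% of all genes. Fold change and GC content had r = 0.743 and rho = 0.658 over the 30 genes. With the GC slope as a covariate, and in the 17 libraries of slope below 0, none passed, and the mature median turned to −0.117 and −0.181.

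MS_EC12 against Control_EC12 sets separated against unseparated mice, both with the supplement. None of the 30 passed by edgeR, and 0.261% of all genes did. By unadjusted p under 0.05, 6 were higher and 4 lower, against 7.87% and 8.04% of all genes. DESeq2 called Olig2 alone, against 1.14% of all genes to which it gave an adjusted p, and limma on log2(TPM + 1) called none. Olig2 had 26.3 to 40.8 CPM in MS_EC12 and 19.9 to 30.3 CPM in Control_EC12 (0.46 ± 0.119, adjusted p = 0.118, edgeR), and all 6 MS_EC12 libraries were above the Control_EC12 median. The next smallest p-values were those of Ugt8a (−0.53 ± 0.159, adjusted p = 0.173), Enpp6 (−0.49 ± 0.155, adjusted p = 0.206), Cspg4 (0.36 ± 0.118, adjusted p = 0.221) and Gpr17 (0.24 ± 0.0882, adjusted p = 0.255), by edgeR. Mbp was at 0.28 ± 0.132, Mog at 0.03 ± 0.114, Cnp at 0.3 ± 0.166, Bcas1 at 0.3 ± 0.121 and Pdgfra at −0.15 ± 0.116. The stage medians were 0.0743 for mature genes, 0.238 for newly formed cells, −0.153 for precursors and 0.238 for lineage factors, against −0.0236 for all genes. The mature median turned to −0.0808 with the GC slope as a covariate and to −0.174 in the 17 libraries of slope below 0. Fold change and GC content had r = 0.801 and rho = 0.746 over the 30 genes.

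Control_EC12 against Control asks what the supplement did in mice without separation. None of the 30 passed by edgeR, DESeq2 or limma on log2(TPM + 1), and 0.0218% of all genes passed by edgeR. At an unadjusted p under 0.05 there were 2 of the 30, against 8.93% of all genes. Gpr17 had 43.5 to 60.3 CPM in Control_EC12 (median 49.1) and 55.7 to 68.4 CPM in Control (median 60.6), and all 6 Control_EC12 libraries were below the Control median (−0.26 ± 0.0883, adjusted p = 0.346, edgeR). Opalin had 20.8 to 37 CPM in Control_EC12 (median 24.9) and 18.9 to 22.7 CPM in Control (median 21.2), with 0.34 ± 0.145 (adjusted p = 0.484, edgeR). Olig1 was at 0.18 ± 0.107, Plekhb1 at 0.17 ± 0.108 and Ermn at −0.31 ± 0.22. Ermn had 17.4 CPM in Control_EC12 replicate 3, a library of GC slope 0.43, and 38.6 to 49.3 CPM in the other 5. Mbp was at 0.07 ± 0.132, Mog at 0.1 ± 0.114, Cnp at 0.14 ± 0.166, Bcas1 at 0.07 ± 0.121, Enpp6 at −0.1 ± 0.154, Pdgfra at −0.09 ± 0.116, Cspg4 at −0.12 ± 0.118 and Olig2 at 0.12 ± 0.119. The median was 0.0535 for mature genes, and 0.00989 for all genes. For the mature genes it turned to −0.04 with the GC slope as a covariate.

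MS against Control, the effect of separation without the supplement, gave the smallest differences. None of the 30 passed by edgeR, DESeq2 or limma on log2(TPM + 1), and 0.0326% of all genes passed by edgeR. The unadjusted p was under 0.05 for 1 gene, against 3.6% of all genes. It was Olig2, with 22.6 to 32.2 CPM in MS (median 26.9) and 18.3 to 26 CPM in Control (median 22.6). All 6 MS libraries were above the Control median, the lowest of them barely. The log2 fold change between the groups was 0.31 ± 0.119 (adjusted p = 1, edgeR). Sox10 was at −0.2 ± 0.123, Cspg4 at 0.13 ± 0.118, Enpp6 at −0.16 ± 0.154 and Fa2h at 0.14 ± 0.182. Mbp had medians of 2144 CPM in MS and 2315 CPM in Control (−0.01 ± 0.132), Mog 53.8 CPM in MS and 52 CPM in Control (0.08 ± 0.114), and Cnp 279 CPM in MS and 293 CPM in Control (0.07 ± 0.166). Bcas1 was at −0.05 ± 0.121 and Pdgfra at 0.03 ± 0.116. The mature genes had a median of −0.00809 with 9 of 21 above 0, against −0.00574 for all genes. With 6 libraries a group, a difference of Mbp of the size of its SE (0.132) lies within the error. The 5 comparisons of groups share libraries with one another, since each group enters more than 1 of them.

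The interaction of separation and supplement (the MS_EC12 over MS difference minus the Control_EC12 over Control difference) asks whether the supplement acted differently in separated mice. None of the 30 passed by edgeR, DESeq2 or limma on log2(TPM + 1), and 0.0109% of all genes passed by edgeR. The unadjusted p was under 0.05 for 2 genes of the 30, against 4.8% of all genes. Gpr17 was at 0.3 ± 0.125 and Ugt8a at −0.48 ± 0.224 (adjusted p = 0.83 for both, edgeR). Bcas1 was at 0.35 ± 0.172, Sox10 at 0.28 ± 0.173 and Olig2 at 0.15 ± 0.168. Mbp was at 0.29 ± 0.187, Cnp at 0.23 ± 0.234, Mog at −0.05 ± 0.162, Enpp6 at −0.34 ± 0.218, Pdgfra at −0.18 ± 0.164 and Cspg4 at 0.22 ± 0.167.

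Other oligodendrocyte genes were read from 3 further lists. Of 35 other genes of mature oligodendrocytes, 1 was higher and 5 were lower between MS_EC12 and Control by edgeR, against 7.31% and 6.8% of all genes. The higher one was Apod, a lipocalin that oligodendrocytes secrete, which averaged 197 CPM in MS_EC12 and 141 CPM in Control (0.49 ± 0.122, adjusted p = 0.0288, edgeR). The list's median was 0.178, with 23 of 35 genes above 0. Its summed level ran the other way. The sum was 2580 to 3287 CPM in MS_EC12 (median 2891) and 3113 to 3478 CPM in Control (median 3364). With the GC slope as a covariate none of the 35 passed, the list's median turned to −0.16, and Apod was at 0.38 ± 0.131. In the 17 libraries of slope below 0 the list's median was −0.191, with none higher and 2 lower (Cntn2 and Ppp1r14a). Of 11 other genes of newly formed cells and 19 of precursors none passed between MS_EC12 and Control by edgeR, with 1 of 11 and 8 of 19 at an unadjusted p under 0.05, against 38.3% of all genes. The smallest p-values were those of the membrane protein Tmem108 (0.35 ± 0.128, adjusted p = 0.0615) and of Ptprz1, a receptor phosphatase of precursors and astrocytes (−0.47 ± 0.162, adjusted p = 0.0531), by edgeR. Over the 65 genes of the 3 lists, DESeq2 called 14 and limma on log2(TPM + 1) called 10 in this comparison, against 29.3% of all genes by DESeq2 and 21.6% by limma. In the other 5 comparisons none of the 65 passed by edgeR or limma, and DESeq2 called 6 for MS_EC12 over MS (13.8% of all genes) and none elsewhere. Those with an unadjusted p under 0.05 numbered 19 for MS_EC12 over MS (31.8% of all genes), 6 for MS_EC12 over Control_EC12 (15.9%), 5 for Control_EC12 over Control (8.93%), 1 for MS over Control (3.6%) and 1 for the interaction (4.8%).

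Markers of other cells were read between MS_EC12 and Control by edgeR, where 7.31% of all genes were higher and 6.8% lower. Of 15 astrocyte genes, 5 were higher and 2 lower, and the summed level ran from 5424 to 6466 CPM in MS_EC12 and from 5803 to 6527 CPM in Control. Of 15 microglial genes, 4 were higher and none lower, with sums of 534 to 671 CPM in MS_EC12 and 484 to 566 CPM in Control. Of 15 excitatory neuron genes, 1 was higher and 3 lower, with sums of 4945 to 6267 CPM in MS_EC12 and 4692 to 5677 CPM in Control. Of 15 inhibitory neuron genes, 1 was higher and none lower, with sums of 1888 to 2109 CPM in MS_EC12 and 1852 to 2017 CPM in Control. Of 15 endothelial genes, 1 was higher and 1 lower, with sums of 316 to 410 CPM in MS_EC12 and 312 to 462 CPM in Control. Of 15 meningeal genes, 1 was higher and none lower, with sums of 224 to 336 CPM in MS_EC12 and 263 to 301 CPM in Control. Of 15 genes of ependyma and choroid plexus, 13 were tested and 4 were higher, and the sum was 32.2 to 755 CPM in MS_EC12 and 27.3 to 33.7 CPM in Control. Schwann cell genes, which mark the myelin of peripheral nerves, numbered 9, with 8 tested, none passing by edgeR and 1 at an unadjusted p under 0.05, and summed to 105 to 119 CPM in MS_EC12 and 106 to 119 CPM in Control. Lists for tissue next to the prefrontal cortex were not at 0 in any group, and none of their genes passed by edgeR: 13 striatal genes summed to 1083 to 2343 CPM in MS_EC12 and 1560 to 1866 CPM in Control, and 15 olfactory bulb genes to 232 to 629 CPM in MS_EC12 and 192 to 477 CPM in Control. No gene of these lists was at 0 in all libraries. Their part in the results on the 30 genes was not tested.

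Some of the 30 genes overlap another protein-coding gene: Cnp with Dnajc7, Cryab with 2310030G06Rik and Hspb2, Gpr17 with Lims2, Aspa with Spata22, and Nkx6-2 with Inpp5a. The library kit keeps strand, but how the reads were counted is not given in the sources used here, so the values of these 5 genes are less certain.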

How the data were processed

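RNA-seq of mouse prefrontal cortex gave 24 libraries in 4 groups of 6, grouped by the labels. The labels' protocols give ISOGEN II for extraction and a TruSeq stranded mRNA kit for the libraries. Tools in the submitters' processing notes, given without roles, were HISAT2 2.1.0, StringTie 2.1.3b, DESeq2, Trimmomatic 0.38 and FastQC 0.11.7, with the build mm10. Raw counts of reads per gene, not normalized, are what the authors deposited. FPKM and TPM values, which the authors computed per the file headers, stand beside them. The TPM values served for levels between genes and for an alternative test, and the FPKM values were not used. Every column had a sample and every row a gene name. Of the gene identifiers, 99.79% matched RefSeq of GRCm38.p6, which gave coordinates. The promoters came from a reference promoter set of the same build. A mature stage of 21 genes, and stages of 3, 3 and 3, were assigned from textbook knowledge.

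Genes were kept by filterByExpr (minimum count 10, minimum total 15) and tested with edgeR 4.0.16 in R 4.3.3, by the quasi-likelihood F test with TMM scaling, with all 24 libraries in the same fit and 6 contrasts. Tests were 2-sided, with Benjamini-Hochberg adjustment over 18380 genes and a threshold of 0.05. The SE is the absolute fold change over the square root of F. The fit was also run on simulated counts with known changes, drawn independently for each gene and without a GC dependence of libraries. They cannot show how the fit handles the GC slopes of these libraries. Transcript GC content came from the longest GENCODE M21 transcript, for 93.2% of the genes tested and all 30 members. The lowest count of any member in a library was 142. The smallest chi-square per gene between 2 libraries of a group was 5.14, so none was a duplicate.

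All 30 genes are named with levels. Fold changes are given for those that passed, for the 5 of smallest p in each comparison, and for Mbp, Mog, Cnp, Bcas1, Enpp6, Pdgfra, Cspg4 and Olig2. From the other oligodendrocyte lists, at most 2 genes of smallest p per list and comparison were eligible, and 1 such gene is not reported here. The members and lists were chosen with earlier results of these data known. Alternatives were DESeq2 1.42.0, DESeq2 size factors in edgeR, other filters on low counts, limma 3.58.1 on log2(TPM + 1), the replicate number as a block, only the groups compared, the GC slope as a covariate, only the libraries of GC slope below 0, and leaving out each library.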

Additional observations from a re-analysis of the deposited data

Results flagged for a closer look

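For each of the 30 genes and each group of 6 libraries, the gap between the highest or lowest library and its neighbour was set against the range of the group. In 9 of the 120 groups it was above Dixon's critical value for 6 libraries, and chance gives about 1 in 20. In the MS_EC12 group, Mog had 37.9 CPM in replicate 1, with the next library at 54.6 CPM, and Tspan2 had 129 CPM in replicate 2, with the next at 95 CPM. In Control_EC12, 3 genes were set apart in replicate 3, a library of GC slope 0.43: Mag at 204 CPM (next 158), Ermn at 17.4 CPM (next 38.6) and Enpp6 at 5.39 CPM (next 8.94). In MS, Ermn had 28 CPM in replicate 3 (next 45), the MS library of GC slope above 0, and Car2 had 126 CPM in replicate 6 (next 151). In Control, Mal had 192 CPM in replicate 1 (next 226) and Aspa had 10.1 CPM in replicate 3 (next 15.1). No member had an interaction past the threshold.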

How the results depend on the processing

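The genes changed as reported were 30 for MS_EC12 over MS, 2594 for MS_EC12 over Control, 48 for MS_EC12 over Control_EC12, 4 for Control_EC12 over Control, 6 for MS over Control and 2 for the interaction, and the members changed were 6 for MS_EC12 over Control and 0 for the others. Counts of genes changed that stayed close to these are not repeated below. Requiring 1 CPM in 6 libraries changed no call or direction among 90 results. With DESeq2, the genes changed were 1894 for MS_EC12 over MS, 4439 for MS_EC12 over Control and 177 for MS_EC12 over Control_EC12. They were 74 for Control_EC12 over Control, 22 for MS over Control and 19 for the interaction. The members changed were 5 for MS_EC12 over MS, 9 for MS_EC12 over Control and 1 for MS_EC12 over Control_EC12. The sign turned for Mbp at 0.00391 for MS over Control. With DESeq2 size factors in edgeR, the sign turned for Mbp at 0.00391 for MS over Control. Without a filter on low counts, the genes changed were 1 for MS_EC12 over MS, 339 for MS_EC12 over Control and 1 for the interaction, and the members changed were 2 for MS_EC12 over Control. With limma on log2(TPM + 1), the genes changed were 1 for MS_EC12 over MS, 3967 for MS_EC12 over Control and 13 for MS_EC12 over Control_EC12. They were 2 for Control_EC12 over Control and 0 for the interaction, and the members changed were 7 for MS_EC12 over Control. The sign turned for Mog at −0.066 and Cspg4 at −0.0246 for MS_EC12 over MS, Mog at −0.0502 for MS_EC12 over Control_EC12. With only the groups compared in the fit, the genes changed were 0 for MS_EC12 over MS and 2 for MS_EC12 over Control_EC12. They were 2 for Control_EC12 over Control and 13 for MS over Control, and the members changed were 5 for MS_EC12 over Control. With the GC slope as a covariate, the genes changed were 3 for MS_EC12 over MS, 40 for MS_EC12 over Control, 137 for Control_EC12 over Control, 62 for MS over Control and 7 for the interaction, and the members changed were 0 for MS_EC12 over Control. Stage medians became −0.0701 (precursor, MS_EC12 over MS) and −0.00467 (precursor, MS_EC12 over Control). The sign turned for Mog at −0.145, Cnp at −0.0622 and Cspg4 at −0.128 for MS_EC12 over MS, Mog at −0.0782, Cnp at −0.0341 and Cspg4 at −0.00467 for MS_EC12 over Control, Mog at −0.117 and Cnp at −0.0184 for MS_EC12 over Control_EC12, Mbp at −0.0388 and Cnp at −0.0157 for Control_EC12 over Control, Cnp at −0.0465 for the interaction. In the 17 libraries of GC slope below 0, the genes changed were 14 for MS_EC12 over MS, 193 for MS_EC12 over Control, 31 for MS_EC12 over Control_EC12, 87 for Control_EC12 over Control and 83 for MS over Control, and the members changed were 1 for MS_EC12 over Control. Stage medians became −0.181 (mature, MS_EC12 over MS), −0.199 (mature, MS_EC12 over Control), −0.0559 (precursor, MS_EC12 over Control) and −0.154 (mature, the interaction). The sign turned for Mog at −0.181, Cnp at −0.0657 and Cspg4 at −0.23 for MS_EC12 over MS, Mbp at −0.0581, Mog at −0.169, Cnp at −0.124 and Cspg4 at −0.114 for MS_EC12 over Control, Cspg4 at −0.00114, Mbp at −0.0297, Mog at −0.194 and Cnp at −0.11 for MS_EC12 over Control_EC12, Mbp at −0.0284, Cnp at −0.0136, Enpp6 at 0.0363 and Pdgfra at 0.0572 for Control_EC12 over Control, Cnp at −0.058 for MS over Control, Sox10 at −0.00381, Cnp at −0.0521 and Cspg4 at −0.118 for the interaction. With the replicate number as a block (replicate block), the genes changed were 3809 for MS_EC12 over MS, 5939 for MS_EC12 over Control, 232 for MS_EC12 over Control_EC12, 33 for Control_EC12 over Control, 10 for MS over Control and 9 for the interaction, and the members changed were 6 for MS_EC12 over MS and 10 for MS_EC12 over Control. Leaving out 1 library at a time, the genes changed ran from 0 to 5037 for MS_EC12 over MS, 9 to 6544 for MS_EC12 over Control, 14 to 186 for MS_EC12 over Control_EC12, 4 to 24 for Control_EC12 over Control, 2 to 9 for MS over Control and 1 to 4 for the interaction. The members changed ran from 0 to 16 for MS_EC12 over MS, 0 to 18 for MS_EC12 over Control and 0 to 2 for MS_EC12 over Control_EC12. Signs turned for Cnp (−0.0607 to 0.121, MS over Control), Cspg4 (−0.00135 to 0.178, MS_EC12 over MS), Enpp6 (−0.155 to 0.0128, Control_EC12 over Control), Mbp (−0.104 to 0.0375, MS over Control), Mog (−0.108 to 0.0444, the interaction), Mog (−0.0239 to 0.128, MS_EC12 over Control_EC12), Pdgfra (−0.185 to 0.00169, Control_EC12 over Control) and Pdgfra (−0.0179 to 0.0777, MS over Control). The members changed between MS_EC12 and MS were at their highest without MS_EC12 replicate 1, and those between MS_EC12 and Control at their lowest without Control replicate 5 or MS_EC12 replicate 6. The replicate numbers are not known to pair libraries: deviations of same-numbered libraries correlated from −0.3 to 0.575 over 36 pairs (median 0.0822), and 13 were over 0.1. Another scaling moved the median of all genes by under 0.1. The medians of the mature genes also turned sign, to −0.117 for MS_EC12 over MS, −0.0893 for MS_EC12 over Control, −0.0808 for MS_EC12 over Control_EC12, −0.04 for Control_EC12 over Control and −0.0611 for the interaction with the GC slope as a covariate. In the 17 libraries they did so for MS_EC12 over Control_EC12 (−0.174) and Control_EC12 over Control (−0.0416), as did the precursor median for Control_EC12 over Control (0.0572). By limma the mature median for MS_EC12 over Control_EC12 was −0.0151, and for MS over Control it was 0.00533 by DESeq2 and 0.00539 with DESeq2 size factors. With 1 library left out, mature medians ran from −0.0607 to 0.0466 for MS over Control and from −0.00121 to 0.156 for MS_EC12 over Control_EC12, and precursor medians from −0.0179 to 0.0777 for MS over Control and from −0.137 to 0.00169 for Control_EC12 over Control. The causes were not tested.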
